A study of Mus musculus with 5 samples.

Results

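The 10 genes described here encode CDK inhibitors and retinoblastoma family proteins, which hold cells out of the division cycle, and a cyclin. They were chosen by name from the deposited table, and all 10 were found among its 39056 genes. The members are the Cip/Kip inhibitors Cdkn1a and Cdkn1b, the INK4 inhibitors Cdkn2a, Cdkn2b, Cdkn2c and Cdkn2d, the pocket protein genes Rb1, Rbl1 and Rbl2, and Ccng2, an atypical cyclin. They were measured by RNA sequencing in haematopoietic stem and progenitor cells from the bone marrow of mice at postnatal day 15, sorted as the LSK population with about 12000 cells per library. The groups are 3 libraries from Gabbr1 null mutant mice and 2 libraries from wild-type (WT) mice, both on the C57BL/6 background. The product of Gabbr1 is part of the GABA-B receptor, a G protein-coupled receptor for the neurotransmitter GABA, and the series title ties it to proliferation and function of these cells. The sources used here do not give the allele, the deleted part of the gene, the sex of the mice or how many animals stand behind each library. The p-values below therefore speak only of how these 5 libraries vary, which may be partly technical.

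Entry into S phase is set by cyclin-dependent kinases that phosphorylate the pocket proteins and so free the E2F transcription factors bound to them. INK4 proteins bind CDK4 and CDK6 and keep D cyclins away from them, whereas Cip/Kip proteins bind whole cyclin and kinase complexes, mainly those of CDK2. RB1 and its relatives p107 (Rbl1) and p130 (Rbl2) repress E2F target genes, and p130 with E2F4 forms the core of the DREAM complex of resting cells. In mouse blood stem cells, several of these genes are known from knockouts to limit cycling or self-renewal.

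The libraries differed in more than genotype. Gabbr1 itself had 289, 264 and 268 counts in null libraries 1, 2 and 3, against 402 and 403 counts in WT libraries 1 and 2. Gabbr1 was called lower in null, with a log2 difference of -0.59 ± 0.13 (SE) and an adjusted p of 0.0361 in edgeR. The call did not hold without null library 2, null library 3, WT library 1 or WT library 2 (adjusted p of 0.0722 to 0.38). Reads in an undeleted part of the gene would still be counted, so these values neither check nor contradict the genotype labels. Library totals lay between 6972753 and 8150774 counts, and levels are given as CPM, TMM-scaled counts relative to the library total, unless TPM is named. Null library 1 stood apart in its sex-linked transcripts, with 22532 Xist counts and 0 counts over 4 Y-linked genes. No other library exceeded 21 Xist counts or fell under 1140 Y-linked counts. That is the pattern of female cells in null library 1 and of male cells in the others. Sex was not a term in the fit. Kit, the stem cell factor receptor used in the sort, was at 864 to 987 CPM in null and 995 and 1050 CPM in WT. Ly6a, which encodes the other sort marker Sca-1, was at 12.9 to 29.8 CPM in null and 26.8 and 30.3 CPM in WT. All 15 B-lineage markers of the list were called higher in null, with a summed level of 832 to 1490 CPM in null and 116 and 285 CPM in WT, and none of them was at 0 in both WT libraries. Of 11 endothelial and stromal markers 8 were called higher, and these lay at 0 to 2.56 CPM in the WT libraries. Col2a1 and Lepr were at 0 in WT. All 11 summed to 292 to 392 CPM in null and 165 and 175 CPM in WT. Most of that WT sum was Pecam1, which was not called, at 139 and 144 CPM in WT and 165 to 180 CPM in null. For comparison, edgeR called 2.15% of all tested genes higher in null. Of 12 neutrophil markers, 10 were tested and 1 was called higher. All 10 had a positive log2 fold change, with a median of 2.91. At an unadjusted p under 0.05 in edgeR, 9 were higher, where 7.99% of all tested genes were. The neutrophil sums were 3210, 1220 and 816 CPM in null libraries 1, 2 and 3. They were 647 and 582 CPM in WT libraries 1 and 2, where Mmp8 was at 0. Of 3 tested erythroid markers and 2 tested T and NK markers, edgeR, DESeq2 and limma-voom called 0, with 2 erythroid markers higher at an unadjusted p under 0.05 in edgeR, and Hba-a1 and Hba-a2 were at 0 in all libraries and Cd3e and Ncr1 at 0 in WT. Erythroid markers summed to 19.9 to 43.8 CPM in null and 15.5 and 17.2 CPM in WT, and T and NK markers to 49.6 to 57.6 CPM in null and 54.0 and 56.5 CPM in WT. In such bulk libraries, fewer cells of a type and less RNA per cell cannot be told apart.

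Among the 10 genes, Rb1 rose in Gabbr1 null LSK cells (fold 1.55, 95% interval 1.25 to 1.93), and no other member passed the threshold of an adjusted p under 0.05. The fold was larger, but did not pass, for the inhibitor genes Cdkn2c (fold 1.87, 95% interval 1.17 to 2.99) and Cdkn1a (fold 1.72, 95% interval 1.27 to 2.32). 8 of the 10 members had enough counts to be tested with edgeR's quasi-likelihood test, fitted over 13467 genes, and Cdkn2a and Cdkn2b did not. Of all tested genes, 2.15% were called higher and 0.334% lower, against 1 member higher and 0 lower. DESeq2 also called 1 member higher and 0 lower (2.5% and 0.379% of all genes), and limma-voom called 0 in either direction (1.62% and 0.26% of all genes). At an unadjusted p under 0.05 in edgeR, Rb1, Cdkn1a, Cdkn2c and Cdkn2d were higher and 0 members were lower, where 7.99% and 4.84% of all genes were. Rb1, Cdkn1a and Rbl1 had every null library above both WT libraries and 0 members had every null library below them, as had 15.5% and 13.7% of all genes. Of the 8 tested members, 7 had a positive log2 fold change with a median of 0.36, beside 49.2% positive and a median of -0.0045 over all tested genes.

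**Figure D1:**
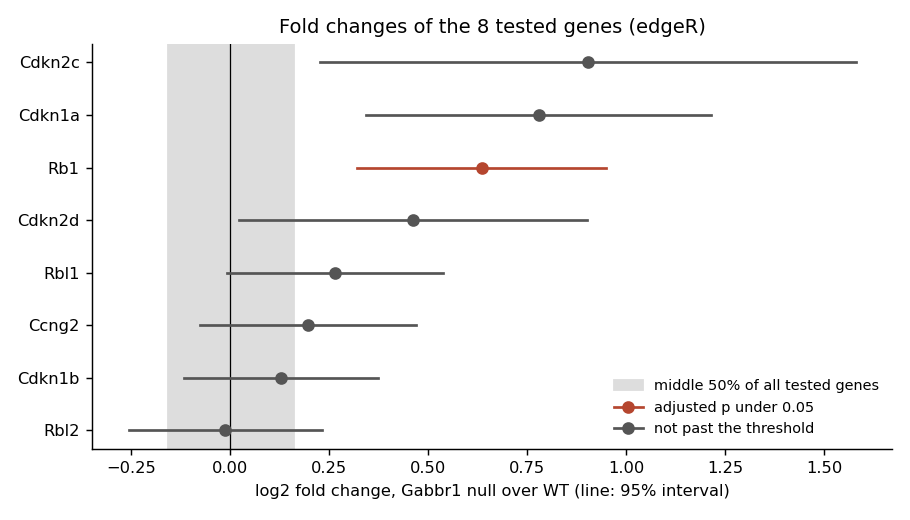
Log2 fold change of the 8 tested genes, Gabbr1 null over WT, from edgeR, with points for the estimate and lines for its 95% interval; the grey band holds the middle 50% of all tested genes. Rb1, in red, is the one gene past the adjusted threshold, and Rbl2 sits at -0.01 with an interval on both sides of 0.

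Per transcript length, the family spanned about an order of magnitude above the genes that were not detected. Levels in TPM, which divide counts by exon length before scaling, averaged 90.9 for Rbl1 over the 5 libraries, 72.0 for Cdkn1b, 60.7 for Ccng2, 55.3 for Rbl2, 48.9 for Cdkn2d, 19.6 for Rb1, 15.2 for Cdkn2c and 10.1 for Cdkn1a. The library ranges of neighbours in this order overlapped for Rbl1 and Cdkn1b, Ccng2 and Rbl2, Rbl2 and Cdkn2d, Rb1 and Cdkn2c, and Cdkn2c and Cdkn1a. They did not overlap between Cdkn1b and Ccng2 or between Cdkn2d and Rb1. Among the inhibitors, the highest mean was that of p27 (Cdkn1b), at 70.4 to 76.2 TPM in null and 66.0 and 74.1 TPM in WT. That of p21 (Cdkn1a) lay at the low end, at 11.7 to 12.1 TPM in null and 7.29 and 7.16 TPM in WT.

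**Figure D2:**
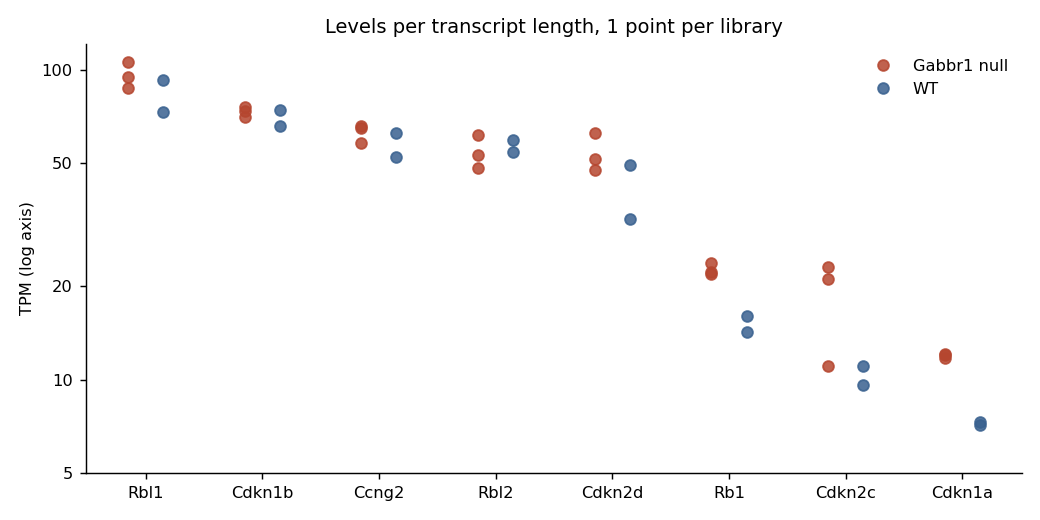
Level in TPM on a log axis for the 8 tested genes, ordered by their mean over the 5 libraries, with 1 point per library and Gabbr1 null left of WT. The genes from Rbl1 to Cdkn2d lie between 32.9 and 106 TPM, and Rb1, Cdkn2c and Cdkn1a between 7.16 and 23.7 TPM.

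The Cip/Kip genes differed in how far the groups stood apart. Cdkn1a encodes p21, the inhibitor best known as a target of p53, and lies on chromosome 17 (29090976 to 29100727, mm10), 7.95 Mb from Gabbr1. Its 111, 104 and 116 counts gave 14.8, 13.7 and 14.3 CPM in null libraries 1, 2 and 3, and its 69 and 57 counts gave 8.49 and 8.12 CPM in WT libraries 1 and 2. The groups did not overlap, as was so in this direction for 15.5% of all genes. The log2 fold change of 0.78 ± 0.20 (SE) missed the threshold over all genes (edgeR adjusted p = 0.0708). Cdkn1a also missed the threshold in DESeq2 and limma-voom (adjusted p = 0.116 and 0.112), and it passed only with no filter on low counts (edgeR adjusted p = 0.0389). A single-exon entry on the opposite strand, AC167363.2, covers 273 of its 3553 exonic bases, and reads of the pair cannot be told apart if strand was not used, a setting the sources used here do not give. Cdkn1b encodes p27, whose amount is set largely by protein degradation, and lies on chromosome 6 (134920401 to 134925513). It had 123, 107 and 108 CPM in null and 98.5 and 108 CPM in WT, so that the groups overlapped. The log2 difference was 0.13 ± 0.11 (SE), which did not pass (edgeR adjusted p = 0.712), with a 95% interval of -0.12 to 0.37. Per length, Cdkn1a stood at 0.154, 0.165 and 0.17 of the Cdkn1b level in null libraries and at 0.111 and 0.0967 of it in WT libraries.

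**Figure D3:**
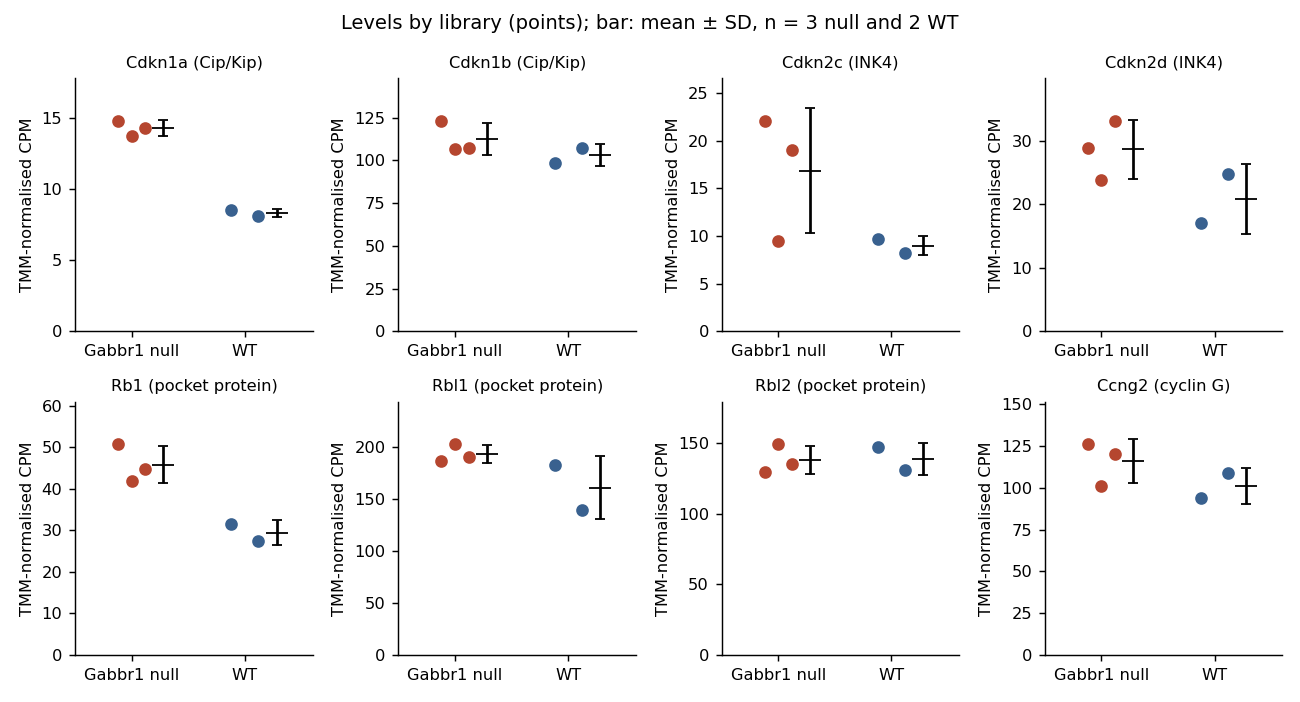
TMM-normalised CPM of the 8 tested genes, with 1 point per library, Gabbr1 null left of WT, and bars for the mean ± SD (n = 3 and 2). The groups stand clear of each other for Cdkn1a and Rb1, 1 null point of Cdkn2c lies among the WT points, and the groups of Rbl2 and Cdkn1b overlap.

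The INK4 genes split into undetected and expressed members. Cdkn2a encodes p16Ink4a and, from another first exon and reading frame, p19Arf, which protects p53; counts of the whole gene cannot separate them. It had 0, 0 and 2 counts in null libraries 1, 2 and 3 and 0 counts in both WT libraries. Its neighbour Cdkn2b, which encodes p15, had 0 counts in all 5 libraries. A sum of 0 over a group, as for Cdkn2b in both groups and Cdkn2a in WT, allows up to 3 counts by counting error alone. That is 0.129 CPM over the null libraries and 0.198 CPM over the WT libraries. The 2 Cdkn2a counts in null allow more than this, and no bound was computed for them. No difference was detectable at this depth for either gene. Both lie on chromosome 4, Cdkn2a at 89274471 to 89294653 and Cdkn2b at 89306299 to 89311039.

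The start sites of this locus are shown because they carry patterns of the factors that the retinoblastoma family and cAMP signalling act through. Windows of 250 bases before to 50 after each RefSeq start (GRCm38.p6) were present for 9 of the 10 members, in 12 windows. They were searched on both strands for E2F (TTTNNCGC, in 5.17% of all 32851 windows of this length), the cell cycle homology region (TTTGAA, 17.9%), FOXO (GTAAACA, 3.65%), the cAMP response element (TGACGTCA, 1.79%), AP-1 (TGANTCA, 7.81%) and the GC box (GGGCGG, 35.7%). The cell cycle homology region occurred at -161 from the Cdkn2b start and at -201 from that of Rbl2. Most windows held a GC box, and none held the AP-1 pattern. The E2F pattern occurred at -99 from the upstream Cdkn2a start, which gives p19Arf, and at -244 from the downstream one, which gives p16Ink4a. Cdkn2b held the cAMP response element at -46. Capitals mark the E2F and cAMP response element matches, and none of them overlapped another pattern searched:
Cdkn2a upstream start, chr4:89294681-89294748, minus strand: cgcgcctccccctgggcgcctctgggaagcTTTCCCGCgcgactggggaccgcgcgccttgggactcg
Cdkn2a downstream start, chr4:89282399-89282442, minus strand: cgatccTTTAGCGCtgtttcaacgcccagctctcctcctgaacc
Cdkn2b start, chr4:89311041-89311108, minus strand: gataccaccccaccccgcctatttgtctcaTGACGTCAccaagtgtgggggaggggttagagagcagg

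Cdkn2c encodes p18, an INK4 inhibitor known to restrain self-renewal of mouse blood stem cells, and lies on chromosome 4 (109660876 to 109667189). It had 22.1, 9.50 and 19.0 CPM in null libraries 1, 2 and 3, from 166, 72 and 154 counts, and 9.72 and 8.26 CPM in WT libraries 1 and 2, from 79 and 58 counts. Null libraries 1 and 3 were above both WT libraries, and null library 2 lay between the WT libraries. The log2 fold change of 0.90 ± 0.31 (SE) did not pass (edgeR adjusted p = 0.206, and 0.143 in DESeq2). Null library 2 decided that value: without it the log2 fold change was 1.19 and passed (edgeR adjusted p = 0.00947), and without null library 1 it was 0.67 (edgeR adjusted p = 0.433). With no filter on low counts it passed as well (edgeR adjusted p = 0.00403). Among the null libraries, the B-lineage markers had the same order as Cdkn2c, with median log2 CPM relative to WT of 3.38, 2.41 and 3.11 in null libraries 1, 2 and 3 and 0.70 and -0.70 in WT libraries 1 and 2. Their part in the Cdkn2c level was not tested.

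Cdkn2d encodes p19Ink4d, the INK4 inhibitor with the highest level here, and lies on chromosome 9 (21288410 to 21291407). It had 28.9, 23.9 and 33.2 CPM in null libraries 1, 2 and 3 and 17.0 and 24.8 CPM in WT libraries 1 and 2. WT library 2 lay above null library 2, so the groups overlapped. The log2 fold change of 0.46 ± 0.20 (SE) did not pass (edgeR adjusted p = 0.357). It ranged from 0.20 without WT library 1 to 0.75 without WT library 2, so that the size of this difference rested on which WT library it was set against. Null library 2 had the lowest level of the null libraries.

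The pocket protein genes gave the one call. Rb1 (ENSMUSG00000022105.6, chromosome 14, 73183673 to 73325822, minus strand) encodes the retinoblastoma protein, which binds the activating E2F factors. It had 381, 318 and 364 counts in null libraries 1, 2 and 3 and 257 and 192 counts in WT libraries 1 and 2. These gave 50.8, 42.0 and 44.9 CPM in null and 31.6 and 27.3 CPM in WT. Every null library was above both WT libraries, and the gap between the groups was larger than the spread within either. Rb1 rose to 45.9 ± 4.48 CPM in null, against 29.5 ± 3.03 CPM in WT (SD, n = 3 and 2), a difference of 0.64 ± 0.14 (SE) on the log2 scale that passed in edgeR (adjusted p = 0.0387).

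The Rb1 call was close to the threshold. It held with RLE and upper quartile factors, in DESeq2 (adjusted p = 0.0205), in a robust edgeR fit, without null library 2, with no filter and with a filter of 1 CPM in every library. It was lost in limma-voom (adjusted p = 0.0547), and in edgeR without null library 1, null library 3, WT library 1 or WT library 2 (adjusted p = 0.113, 0.0869, 0.0965 and 0.386). The log2 fold change stayed between 0.54 and 0.73 in all 12 alternatives. On the opposite strand, exons of Lpar6, a receptor gene inside an Rb1 intron, and of the neighbour Rcbtb2 cover 408 and 488 of the 6015 exonic bases of Rb1. Lpar6 had 30.6, 24.8 and 27.9 CPM in null and 29.9 and 23.9 CPM in WT, and Rcbtb2 66.4, 69.9 and 69.2 CPM in null and 73.2 and 65.5 CPM in WT, so both overlapped between the groups. In edgeR, Lpar6 differed by 0.04 ± 0.16 and Rcbtb2 by -0.02 ± 0.11 (SE, log2; adjusted p = 0.954 and 0.971). Among the null libraries, Rb1 was lowest in null library 2, as the B-lineage marker median was, whereas Rbl1 and Rbl2 were highest there. The part of B-lineage cells in the Rb1 level was not tested.

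**Figure D4:**
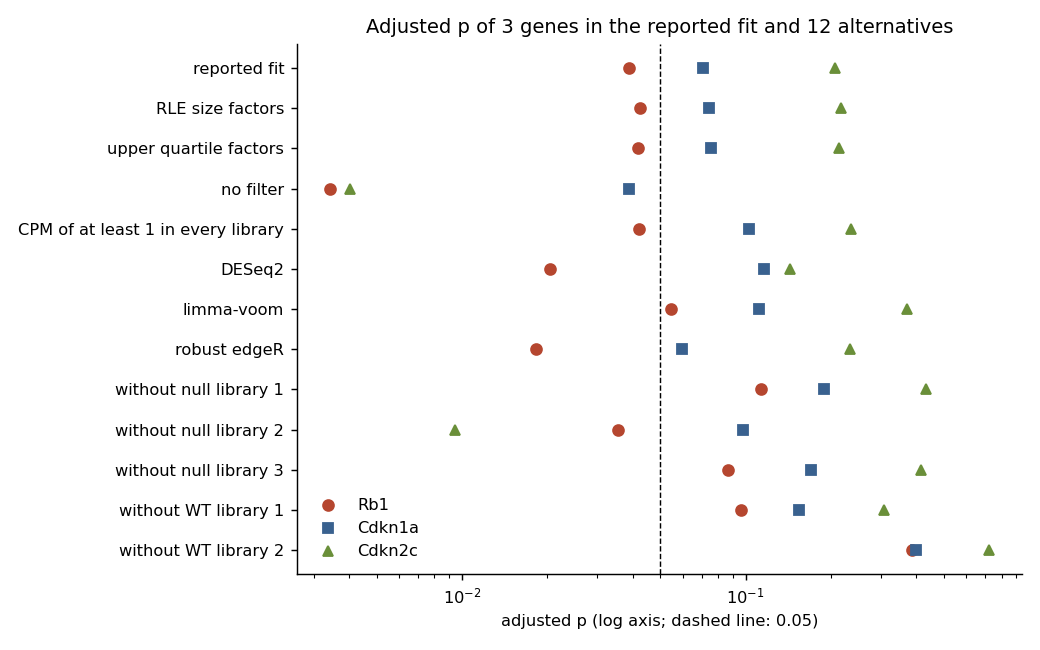
Adjusted p on a log axis for Rb1, Cdkn1a and Cdkn2c in the reported edgeR fit and in 12 alternatives, with a dashed line at 0.05. Rb1 lies left of the line in the reported fit and in 7 alternatives, Cdkn1a in 1 and Cdkn2c in 2, and the points are farthest right without WT library 2, which leaves 1 WT library.

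Rbl1 encodes p107, the pocket protein of cycling cells, and lies on chromosome 2 (157145893 to 157204534). It had 187, 203 and 191 CPM in null libraries 1, 2 and 3 and 182 and 139 CPM in WT libraries 1 and 2. The null libraries were above both WT libraries, by a margin over WT library 1 that was smaller than the gap between the WT libraries. Its log2 fold change of 0.27 ± 0.13 (SE) did not pass (edgeR adjusted p = 0.407), and it was 0.08 without WT library 2 and 0.46 without WT library 1. Rbl1 is a known E2F target, and its start is shown for that reason. Its window was the one among the 12 with 2 E2F patterns, at -18 and -8 from the start, in capitals here:
Rbl1 start, chr2:157204535-157204582, minus strand: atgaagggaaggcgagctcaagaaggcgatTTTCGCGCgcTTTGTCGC

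Rbl2 encodes p130, the pocket protein of resting cells, and lies on chromosome 8 (91070057 to 91123844). It had 129, 149 and 135 CPM in null libraries 1, 2 and 3 and 147 and 131 CPM in WT libraries 1 and 2. The groups covered the same range, and the difference was -0.01 ± 0.11 (SE) on the log2 scale (edgeR adjusted p = 0.983). The 95% interval of the fold was 0.838 to 1.17. Exons of Aktip and Gm45464 on the opposite strand cover 693 and 892 of the 7558 exonic bases of Rbl2. Within each library, the make-up of the pocket transcripts per length can be set side by side. Rb1 made up 14.9%, 11.5% and 13.0% of the summed Rb1, Rbl1 and Rbl2 TPM in null libraries 1, 2 and 3, and 9.54% and 10.1% in WT libraries 1 and 2. Rbl2 made up 30.2%, 32.6% and 31.2% in null and 35.2% and 38.4% in WT, and Rbl1 54.9% to 55.9% in null and 55.2% and 51.6% in WT. The Rb1 and Rbl2 shares did not overlap between the groups, and the Rbl1 shares did. Shares of a sum move against each other, so the Rbl2 share is no second difference beside its own level, which overlapped. Levels of single genes did not overlap for 15.5% (higher in null) and 13.7% (lower) of all genes. How often shares do so was not counted.

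Ccng2 encodes cyclin G2, an atypical cyclin that is high in resting cells and known as a FOXO target. It lies on chromosome 5 (93267257 to 93276231) and had 126, 101 and 120 CPM in null libraries 1, 2 and 3 and 93.7 and 109 CPM in WT libraries 1 and 2. WT library 2 was above null library 2, and the log2 fold change of 0.20 ± 0.12 (SE) did not pass (edgeR adjusted p = 0.576). Its 95% interval was -0.08 to 0.47. The FOXO pattern GTAAACA was in none of the 12 windows, that of Ccng2 included.

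Around these genes, 6 lists of the same pathway held 93 genes, of which 89 were tested. edgeR called 4 of them higher and 1 lower (2.15% and 0.334% of all genes). Its unadjusted p was under 0.05 for 12 higher and 3 lower (7.99% and 4.84% of all genes). The calls numbered 6 and 1 in DESeq2 (2.5% and 0.379% of all genes) and 4 and 0 in limma-voom (1.62% and 0.26%). Their fold changes were balanced, with 48 positive, 41 negative and a median of 0.01 on the log2 scale. Of 14 tested G1 cyclins and kinases, the cyclin D3 gene Ccnd3 rose and 0 fell. It had 273, 216 and 282 CPM in null and 154 and 150 CPM in WT (log2 fold change 0.76 ± 0.13 SE, edgeR adjusted p = 0.00807), and was lost without WT library 1 or WT library 2 (adjusted p = 0.0937 and 0.22). The kinases that INK4 proteins bind, named here after their values were seen, did not pass. Cdk6 had 966, 1010 and 952 CPM in null and 767 and 588 CPM in WT (log2 fold change 0.53 ± 0.14 SE, edgeR adjusted p = 0.0777), and Cdk4 339, 356 and 398 CPM in null and 395 and 401 CPM in WT (log2 fold change -0.13 ± 0.12 SE, edgeR adjusted p = 0.742).

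Of 18 tested genes of E2F, DP and DREAM subunits, E2f2 rose and 0 fell, with 13 positive and a list median of 0.13. E2f2, an activating E2F that RB1 binds, had 82.2, 71.7 and 88.5 CPM in null and 31.3 and 32.3 CPM in WT. The difference of 1.35 ± 0.13 (SE) on the log2 scale had an edgeR adjusted p of 0.000254 and passed in all 12 alternatives, with an adjusted p of at most 0.032. The lowest null level was in library 2 for E2f2 and in library 3 for Trp53inp1, described next. Of 16 tested genes of the p53 axis, which Cdkn1a belongs to as a target, 1 rose, 0 fell, and 11 had a negative log2 fold change (list median -0.13). The gene that rose was Trp53inp1, a p53-induced regulator of cell death and autophagy, with 93.8, 76.7 and 61.0 CPM in null and 41.2 and 33.5 CPM in WT (log2 fold change 1.04 ± 0.18 SE, edgeR adjusted p = 0.00724). Leaving out WT library 1 or WT library 2 ended the call (adjusted p = 0.0686 and 0.259).

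Of 15 tested genes of the FOXO axis, Foxo1 rose and 0 fell, with a list median of 0.03. Foxo1 had 128, 89.3 and 115 CPM in null and 59.0 and 48.4 CPM in WT (log2 fold change 1.04 ± 0.16 SE, edgeR adjusted p = 0.00348), was lost without WT library 1 or WT library 2 (adjusted p = 0.0513 and 0.186), and also followed the order of the B-lineage markers over the null libraries. Of 10 tested genes of p27 turnover, 0 were called, and 0 were past an unadjusted p of 0.05 in edgeR or called by DESeq2 or limma-voom. Among them Skp2, the ubiquitin ligase subunit that recognises p27, had 48.2, 49.5 and 51.8 CPM in null and 50.2 and 44.6 CPM in WT (log2 fold change 0.07 ± 0.12 SE, edgeR adjusted p = 0.881). Of 16 tested Polycomb genes and histone demethylases that act on the INK4 locus, 0 rose and Kdm6b fell. Kdm6b, a demethylase of the Polycomb mark on histone H3, had 107, 92.9 and 92.2 CPM in null and 126 and 154 CPM in WT (log2 fold change -0.52 ± 0.12 SE, edgeR adjusted p = 0.0453). It was lost in limma-voom, with the filter of 1 CPM in every library, and without null library 2, null library 3, WT library 1 or WT library 2 (adjusted p of 0.0508 to 0.415).

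**Figure D5:**
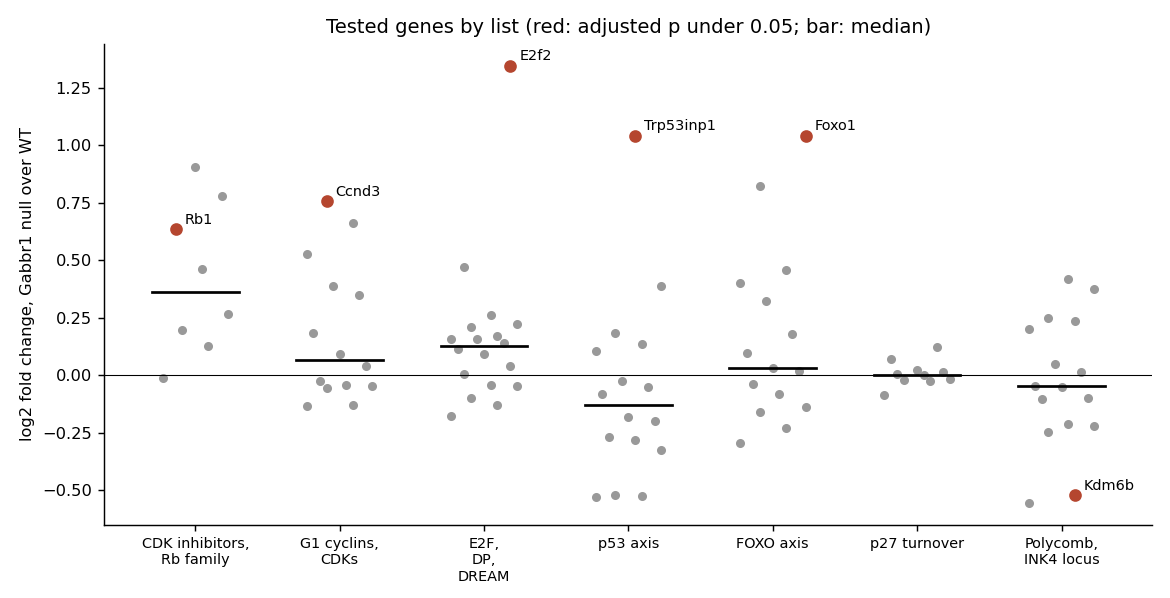
Log2 fold change, Gabbr1 null over WT, of each tested gene in the CDK inhibitor and Rb family group and in 6 pathway lists, with black bars for list medians and red points for genes with an adjusted p under 0.05. Rb1, Ccnd3, E2f2, Trp53inp1 and Foxo1 are the red points above 0, and Kdm6b is the red point below it.

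Transcripts of proliferation and of the immediate early response were read in the same libraries. All 20 proliferation genes of the list had a positive log2 fold change, with a median of 0.19, beside 49.2% positive over all tested genes. The ribonucleotide reductase subunit gene Rrm2 was the 1 that rose (276, 228 and 266 CPM in null, 137 and 125 CPM in WT, edgeR adjusted p = 0.00109). Of 13 tested immediate early genes, 9 fell and 0 rose in edgeR, with a median of -0.91, where 0.334% and 2.15% of all genes did. DESeq2 called 6 of them lower and limma-voom 7 (0.379% and 0.26% of all genes). Their summed level was 846, 572 and 677 CPM in null libraries 1, 2 and 3 and 1270 and 2210 CPM in WT libraries 1 and 2. The part of this response in the levels of Cdkn1a or Rb1 was not tested.

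The genes whose pattern was most like that of Rb1 were found by the root mean square difference of log2 CPM, centred over the 5 libraries, among 10168 genes with a mean of at least 5 CPM. They were Lnpk, an endoplasmic reticulum protein gene, at 0.03, the caveolin gene Cav2 at 0.03, Bcl7a, a subunit of the BAF chromatin remodelling complex, at 0.06, the stress kinase gene Map3k5 at 0.06 and the peroxisomal transporter gene Abcd2 at 0.07. Bcl7a had 156, 124 and 141 CPM in null and 88.6 and 81.3 CPM in WT and rose (edgeR adjusted p = 0.00728), a call lost without WT library 1 or WT library 2 (adjusted p = 0.0661 and 0.187). Map3k5 had 106, 94.2 and 95.2 CPM in null and 72.4 and 63.5 CPM in WT and rose (edgeR adjusted p = 0.0297), a call lost without null library 1, null library 3, WT library 1 or WT library 2 (adjusted p of 0.0645 to 0.287). Lnpk, Cav2 and Abcd2 did not pass (edgeR adjusted p = 0.0684, 0.243 and 0.211). The 5 libraries are also the ones that carry the genotype difference, so such likeness is a description of these libraries only.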

How the data were processed

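RNA was sequenced from LSK cells of 3 Gabbr1 null and 2 WT libraries, the number in the series design; the extraction protocol gives 4 per genotype. Per the labels' protocols, library preparation started from 3.6 to 5 ng of RNA with targeted depletion, although the molecule field says polyA, and reads were pairs of 50 bp. The deposited values are raw counts, 1 whole number per gene and library, and the submitters' processing notes name STAR, featureCounts and mm10. Versions, strand setting and handling of duplicate or multi-mapped reads: not given in the sources used here. 99.5% of IDs matched GENCODE M21 (mm10), which gave symbols, positions and exon lengths.

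Genes passing filterByExpr (13467 of 39056) were scaled by TMM and tested with edgeR 4.0.16 in R 4.3.3 (quasi-likelihood F test, genotype as the only term, 3 residual degrees of freedom, Benjamini-Hochberg over all tested genes, threshold 0.05). Standard errors come from the F statistic, and 95% intervals are not adjusted. DESeq2 1.42.0, limma-voom 3.58.1, other factors and filters, a robust fit and each library left out were alternatives. Counting intervals and the floor of 3 counts cover counting error only. The code was tested on simulated counts. No replicate pair agreed within sampling noise (chi-square per degree of freedom 8.08 to 12.8).

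The members and lists were chosen with earlier results of these data known. The rule for named genes took all members, Gabbr1, the called genes of each pathway list or else its 3 of lowest p, the 3 of lowest p in the proliferation and immediate early lists, the 2 most abundant of each marker list and the 5 genes most like the member with the lowest p. The text gives a selection of these; the other marker genes in it and Lpar6, Rcbtb2, Cdk4 and Cdk6 fall outside the rule. Promoter windows are RefSeq's (GRCm38.p6).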

Additional observations from a re-analysis of the deposited data

How the results depend on the processing

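Each library left out, other scalings, filters and tools were tried for the counts of all genes, members and listed pathway genes called in each direction, and for the fold changes of the tested members and of some other named genes. Cdk4, Cdk6, Skp2, Rrm2 and the marker, proliferation, immediate early, sign and no-overlap counts were not recomputed under all of these. No member was called lower in any of them. Dropping the filter on low counts gave 602 genes higher and 155 lower, 3 members higher and 8 listed pathway genes higher and 3 lower. The filter of 1 CPM in every library gave 173 genes higher and 0 listed genes lower, and limma-voom 0 members higher and 0 listed genes lower. With a single library left out, 32 to 316 genes were called higher and 0 to 51 lower, 0 to 2 members higher, and 1 to 4 listed genes higher and 0 to 1 lower. The fewest genes were called without WT library 2 (32 higher), then without WT library 1 (101 higher), each of which leaves 1 WT library whose spread is then taken to be that of the null libraries. Genes called lower numbered 0 without WT library 2 and 15 without null library 3. The cause was not tested. Uncalled values near 0 changed sign when 1 library was left out: Rbl2 ranged from -0.0938 to 0.0614 on the log2 scale, Lpar6 from -0.107 to 0.204 and Rcbtb2 from -0.0978 to 0.0523. The other 7 tested members kept a positive fold change throughout. No paired analysis was possible because the labels give no number shared between the groups. Depth limited Cdkn2b, and Cdkn2a in WT, to an upper bound, and Cdkn1a and Cdkn2c rested on 57 to 166 counts per library.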
